A study of Mus musculus with 60 samples.

Results

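The later interval of enhanced reprogramming in wild-type fibroblasts, from day 2 to day 4 of factor induction plus VC, was described from 6 libraries. They were taken by their labels, 3 for WT cells on day 2 and 3 for WT cells on day 4, all with VC, out of 36 libraries in the reprogramming table and 60 in the whole series. The cells were tail tip fibroblasts of a 22-week-old female mouse with the genotype 4FJ_(+/-)_OCT4-GFP. They carry a tetracycline-controlled cassette of Oct4, Klf4, Sox2 and Myc at Col1a1, driven by rtTA from the ROSA26 locus. Doxycycline at 2 µg/ml switched the cassette on for 2 or 4 days. VC is ascorbic acid (vitamin C) at 50 µg/ml together with the GSK3 inhibitor CHIR99021 at 3 µM, and both groups received it. All cells were kept at 3% oxygen. Values are set beside 3 other WT groups (day 0 plus VC without doxycycline, and days 2 and 4 of doxycycline without VC) and beside D/KO cells, labelled 4FJ_ERCC1_(d/-), at days 2 and 4 plus VC. The D/KO fibroblasts came from an 8-week-old male, so that genotype, sex, age and line change together in that comparison. How long the day 0 plus VC cells had received VC is not given in the sources used here, so time in culture, time with VC and time with the factors cannot be told apart.

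The 4 factors first silence the programme of the starting cell and start a transition from mesenchymal towards epithelial cells, and they switch on the pluripotency network only much later and in few cells. Fibroblasts hold their identity through matrix production and through TGFb signaling, which opposes that transition. Vitamin C is a cofactor of the Tet and histone demethylases and of the prolyl and lysyl hydroxylases that modify collagen, and CHIR99021 mimics Wnt signaling by stabilising b-catenin.

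The 6 libraries held 16630053 to 18484951 counts each. The day 4 libraries detected more genes (19217 to 19763 with a count) than the day 2 libraries (17627 to 18596), and a larger share of their counts came from the mitochondrial genome (1.61% to 2.32% against 0.94% to 1.58%). The distances between libraries are root-mean-square log2 differences over all tested genes. They ran from 0.477 to 0.582 within the 2 groups and from 0.667 to 0.841 between them. Replicate 1 of day 2 moved the counts of changed genes most when left out, so for this comparison the counts over gene lists that a single library moved by more than 1.5 times are given with the value or the range without it, apart from some counts of a few genes. Fibroblast markers were high in all 6 libraries, with all 26 listed markers tested and Thy1 between 990 and 1180 CPM (a gene's counts scaled to a common library total). Of the genes that define other cells of a tail tip, some had no count in any of the 6 libraries, namely the keratinocyte gene Krt15, the endothelial receptor gene Kdr, the melanocyte genes Dct and Tyr, the muscle genes Myod1 and Myog, and the fat cell gene Adipoq. Other markers of the same lists had counts, among them the endothelial receptor gene Tek with 4976 counts summed over the day 2 libraries and 5741 over the day 4 libraries, the leukocyte gene Lyz2 with 2593 and 1819, the fat cell gene Cebpa with 6951 and 5828, the muscle gene Des with 465 and 470, and the keratinocyte gene Krt14 with 453 and 356. In bulk RNA, fewer cells of a kind and less RNA per cell cannot be told apart.

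Of 15832 tested genes, 3176 (20.1%) differed between day 4 and day 2 at an adjusted p under 0.05 in edgeR's quasi-likelihood test, 1575 higher (9.95%) and 1601 lower (10.1%) at day 4. Large changes were mostly rises, since 650 higher genes (4.11% of all tested) but 211 lower genes (1.33%) moved by at least 1 on the log2 scale. Without replicate 1 of day 2 the counts were 888 higher and 843 lower. The list counts of this comparison below stand beside the shares over all tested genes, 9.95% higher and 10.1% lower. The interval before, from day 0 plus VC to day 2 plus VC, gave 4357 genes (27.5%), 2191 higher and 2166 lower. Both intervals use the same day 2 libraries, so that values of the 2 intervals are only placed next to each other here. The CPM of the 3 libraries at day 4 lay wholly above or wholly below those at day 2 for 41.5% of all tested genes (19.9% above and 21.6% below).

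**Figure D1:**
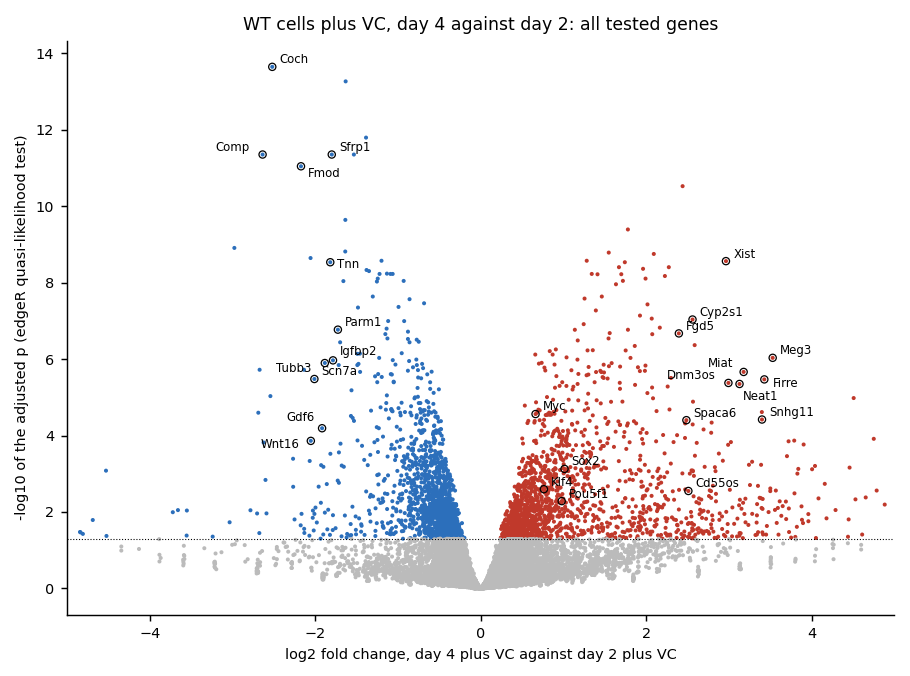
Each point is 1 of the tested genes, with its log2 fold change from day 2 to day 4 plus VC on the x axis and -log10 of the adjusted p on the y axis, where the dotted line marks 0.05. Red and blue points are the 1575 higher and 1601 lower genes, circles mark the factors and genes among those with the largest changes, and 12 genes lie outside the x axis limits of 5.

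The 4 reprogramming factors went on rising after day 2. Pou5f1, which encodes Oct4, had 40, 51.9 and 55 CPM at day 2 and 108, 88.3 and 93.3 CPM at day 4, a log2 fold change of 0.98 ± 0.25 (SE, n = 3 and 3, adjusted p = 0.0052). Sox2 went from 56.5, 71.5 and 67.3 CPM to 149, 126 and 119 CPM (1.01 ± 0.21, adjusted p = 0.000746). Klf4 went from 149, 175 and 175 CPM to 297, 278 and 273 CPM (0.76 ± 0.18, adjusted p = 0.00253). For each of these genes every day 4 library lay above every day 2 library. Myc, a driver of growth and ribosome production, went from 162, 172 and 159 CPM to 238, 289 and 254 CPM (0.66 ± 0.11, adjusted p = 2.74e-05), again with no overlap. Reads of the cassette and of the endogenous genes were counted together, so these values do not tell them apart. In the interval before, log2 fold changes were 4.57 for Pou5f1, 4.19 for Sox2, 2.13 for Myc and 0.88 for Klf4, whose day 0 level was already 86.2 to 94.5 CPM.

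Among called genes with a mean of at least 5 CPM at day 2 or day 4, the largest rises were those of long noncoding RNAs, many of which stay in the nucleus. Meg3, the maternally expressed RNA of the imprinted Dlk1-Dio3 locus on chromosome 12, had 1.59, 6.65 and 4.32 CPM at day 2 and 40.7, 69.7 and 36.4 CPM at day 4 (log2 fold change 3.53 ± 0.46, adjusted p = 9.27e-07). At day 0 plus VC its level had been 18.4, 22.1 and 11.9 CPM, so that it first fell and then rose above its start. Neat1, the scaffold of nuclear paraspeckles, went from 45.7, 94.1 and 55.5 CPM to 380, 830 and 499 CPM (3.13 ± 0.45, adjusted p = 4.48e-06). Xist, the RNA that coats the inactive X chromosome of female cells, went from 44.9, 112 and 90.3 CPM to 688, 673 and 569 CPM (2.96 ± 0.27, adjusted p = 2.74e-09). Its day 0 plus VC level, 62 to 139 CPM, overlapped that of day 2. The X-linked RNA Firre rose by 3.43 on the log2 scale, from 1.23 to 3.68 CPM up to 22.3 to 39.3 CPM. The nuclear RNA Miat rose from 8.34, 19.2 and 17 CPM to 114, 187 and 103 CPM (3.18 ± 0.44), and Snhg11, a snoRNA host gene, rose by 3.40 from under 1 CPM to 6.78 to 11.1 CPM. Dnm3os, the host transcript of miR-199a-2 and miR-214, rose by 2.99 and returned above its day 0 plus VC level of 18.5 to 38.8 CPM, with 45.1 to 58.7 CPM at day 4. Whether the counting used strand is not given, and exons of other genes overlap those of Xist (Tsix and Jpx on the opposite strand), Neat1 (Frmd8os), Firre (Crsfirre) and Cd55os (Cd55b), so their reads cannot be told apart. Cd55os, an antisense RNA, rose by 2.51 and the sperm protein gene Spaca6, whose exons overlap Mir125a, by 2.49. Protein-coding genes among the largest rises included the cytochrome P450 gene Cyp2s1 (2.56 ± 0.30) and Fgd5, an activator of the GTPase Cdc42 (2.40 ± 0.29).

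**Figure D2:**
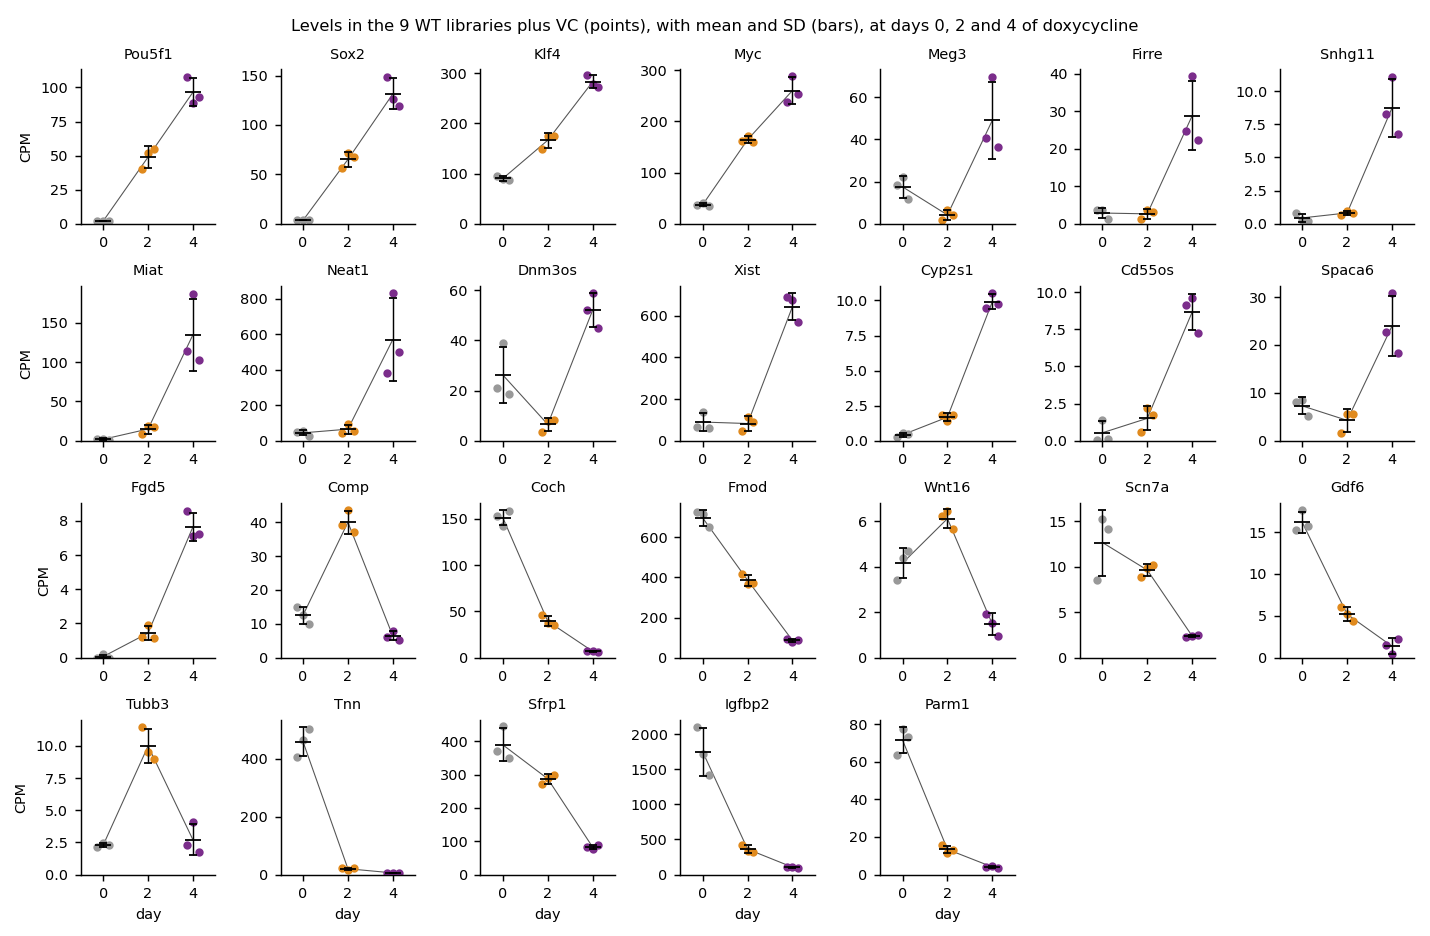
CPM of the reprogramming factors and of 11 of the largest rises and 11 of the largest falls in the 9 WT libraries plus VC at days 0, 2 and 4, 1 point per library, with the mean and SD as bars. Meg3 and Dnm3os dip at day 2 and rise at day 4, whereas Comp and Tubb3 peak at day 2.

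As a class, 204 of 1303 tested lncRNA genes were higher (15.7%) and 11 lower (0.844%), beside 9.95% and 10.1% of all tested genes. Their median log2 fold change was 0.48, beside -0.03 for protein-coding genes and -0.01 for all tested genes. The lncRNA counts were 106 and 3 without replicate 1 of day 2, 127 and 10 without replicate 2 of day 4, 169 and 6 without replicate 1 of day 4 and 149 and 4 without its replicate 3. Gene families were grouped by symbol after the values had been seen and are given as a description. Of 13 well-studied long noncoding RNAs, a set that holds 6 of the largest rises above and so restates them, 10 were higher and none lower, and between 9 and 10 were higher as each library was left out in turn. Malat1, the abundant RNA of nuclear speckles, went from 36.1, 89.4 and 119 CPM to 362, 224 and 352 CPM (1.94 ± 0.45, adjusted p = 0.00219), and Rian, a neighbour of Meg3 in the imprinted locus, rose from 9.63, 13.9 and 11.9 CPM to 19.2, 25 and 24.2 CPM (0.95 ± 0.17). Most of the 13 are known to stay in the nucleus. Norad and Gas5 also act or decay in the cytoplasm, and Gas5 was among those higher (0.51, adjusted p = 0.037). Norad and Tug1 had log2 fold changes of 0.02 and 0.07 (adjusted p = 0.916 and 0.75). The summed level of the 13 RNAs was 598 to 796 CPM at day 2 and 2110 to 2550 CPM at day 4.

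Among genes of SR proteins and related splicing factors, many of which sit in the nuclear speckles, more were higher than lower. Of 56 tested, 32 were higher (57.1%), 1 lower (1.79%) and 23 not called, beside 9.95% higher and 10.1% lower among all tested genes. The median log2 fold change was 0.65, and summed levels were 3070 to 3240 CPM at day 2 and 4640 to 5380 CPM at day 4. Between 30 and 33 were higher as each library was left out in turn. Srsf7 went from 17.2, 17.7 and 15.4 CPM to 32.8, 50.6 and 44.1 CPM (1.34 ± 0.14, adjusted p = 5.93e-09). Snrnp70, a protein of the U1 snRNP, the particle that recognises the start of introns, went from 59.7, 69.9 and 60.8 CPM to 124, 205 and 134 CPM (1.28 ± 0.12, adjusted p = 2.68e-09). Rsrp1 (2.17 ± 0.26), Pnisr (2.07 ± 0.25), Arglu1 (2.07 ± 0.24) and the cyclin gene Ccnl2 (1.99 ± 0.27) changed most. In each of Rsrp1, Pnisr, Arglu1 and Ccnl2, replicate 2 of day 4 was the highest library. Several of these genes make transcripts with retained introns or poison exons, and counts per gene do not separate such transcripts from the coding ones. Of 20 hnRNP genes 4 were higher and none lower (2 higher without replicate 1 of day 2), among them Hnrnpdl and Hnrnph1 (both 1.11).

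The direction of calls also moved with transcript length. Protein-coding genes were split by length into 5 equal groups. In that of the shortest (exonic length 293 to 2539 bases) 3.1% were higher and 18.3% lower. In that of the longest (7674 to 123179 bases) 14.1% were higher and 6.74% lower. Over the same interval without VC, 1.97% were higher and 31% lower in the shortest group, and 24.9% and 3.06% in the longest. In D/KO cells plus VC the shares were 6.34% and 8.27% in the shortest, and 9.44% and 8.82% in the longest. Of 333 zinc finger genes named Zfp with a number, 67 were higher (20.1%) and 2 lower (0.601%), beside 9.95% and 10.1% of all tested genes. Higher zinc finger genes numbered 26 without replicate 1 of day 2, and 43 without replicate 1 or 2 of day 4. Over the same interval 57 of them were higher and 6 lower without VC, and 10 and 3 in D/KO cells plus VC. Of 84 nuclear-encoded respiratory chain subunits, 38 were lower and none higher (median -0.42), for example Cox6a1 with 187, 152 and 134 CPM at day 2 and 68.9, 94.3 and 85.4 CPM at day 4. Their summed level was highest in replicate 1 of day 2, 7030 CPM against 5890 and 5930 CPM, and without that library 9 were lower, and 18 without replicate 1 of day 4. Of 38 proteasome subunits 13 were lower, 2 without that library, and 5 and 7 without replicates 1 and 3 of day 4. Of 82 cytosolic ribosomal protein genes 1 was higher and 6 lower in edgeR's test and in DESeq2, between 0 and 10 were lower as each library was left out in turn, with none without replicate 1 of day 2, and 54 had been higher in the interval before. The part of length, of nuclear RNA and of the rise in mitochondrial counts in these differences was not tested.

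The largest falls were in genes of the extracellular matrix and of secreted signals. Comp, cartilage oligomeric matrix protein, which binds and aligns collagens, fell from 39.1, 43.7 and 37.2 CPM to 6.22, 7.85 and 5.22 CPM (-2.64 ± 0.19, adjusted p = 4.46e-12). It had been 9.96 to 15 CPM at day 0 plus VC, so that a rise and a fall followed each other. The matrix protein gene Coch fell from 45.8, 36.9 and 35.3 CPM to 7.26, 7.13 and 6.19 CPM (-2.52 ± 0.15, adjusted p = 2.27e-14) after an earlier fall from 142 to 158 CPM. Fmod, fibromodulin, a proteoglycan that governs collagen fibril assembly, fell from 417, 367 and 374 CPM to 93.7, 77.1 and 85.8 CPM (-2.17 ± 0.17, adjusted p = 9.06e-12). Tnn, tenascin N, was at 406 to 505 CPM at day 0 plus VC, at 16.2 to 22.6 CPM at day 2 and at 4.89 to 6.92 CPM at day 4 (-1.82 ± 0.18 over the later interval). Igfbp2, a secreted binder of insulin-like growth factors, fell from 427, 340 and 317 CPM to 105, 110 and 100 CPM (-1.78 ± 0.23). The sodium channel gene Scn7a (-2.01 ± 0.28) and Parm1 (-1.73 ± 0.21) fell as well. Tubb3, a b-tubulin best known in neurons, had risen from 2.15 to 2.46 CPM at day 0 plus VC to 8.94 to 11.5 CPM at day 2 and fell back to 1.78 to 4.06 CPM at day 4 (-1.88 ± 0.25).

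Secreted ligands and antagonists of the Wnt and BMP pathways were among the falling genes. The Wnt antagonist Sfrp1 fell from 271, 291 and 300 CPM to 82.2, 75.7 and 89.5 CPM (-1.80 ± 0.13, adjusted p = 4.46e-12), and its relative Sfrp2 from 52.8, 45.9 and 33.6 CPM to 14.9, 13.8 and 15.8 CPM (-1.57 ± 0.26). The ligand gene Wnt16 fell from 6.25, 6.43 and 5.66 CPM to 1.92, 1.54 and 0.968 CPM (-2.05 ± 0.37), whereas the antagonist gene Dkk2 rose from 334, 395 and 364 CPM to 586, 517 and 562 CPM (0.61 ± 0.13). Of 7 secreted Wnt antagonists, 1 was higher and 3 were lower. Among BMP antagonists 5 of 9 were lower and none higher, and 5 or 6 were lower as each library was left out in turn. They included Chrdl1, from 51, 50.5 and 56.3 CPM to 16.5, 15.7 and 17.8 CPM (-1.66 ± 0.17, adjusted p = 9.13e-09), Fst (-1.03), Nog (-1.03) and Grem1 (-0.84). The BMP ligand gene Gdf6 fell from 6.01, 5.17 and 4.38 CPM to 1.45, 0.384 and 2.26 CPM (-1.92 ± 0.33). Of 11 BMP target genes 3 were lower, Smad6 (-0.63), Id4 (-0.76) and Atoh8 (-0.68), and all 3 had their highest day 2 value in replicate 1, without which none of the 11 passed in edgeR's test. Of 16 tested Wnt feedback targets, which respond to the pathway that CHIR99021 mimics, 2 were higher and 2 lower, beside 9.95% and 10.1% of all tested genes. As each library was left out in turn, 1 or 2 of the targets passed in each direction. Apcdd1 rose from 56.2, 57.9 and 56.6 CPM to 107, 103 and 110 CPM (0.91 ± 0.12, adjusted p = 5.59e-07) and Axin2 from 12.2, 12.4 and 9.67 CPM to 16.7, 17.7 and 19.8 CPM (0.66 ± 0.22, adjusted p = 0.0313), while Nkd2 fell by 0.82 and Wif1 by 2.60.

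Fibroblast identity genes fell on balance without being lost. Of 26 tested markers 16 were lower and 1 higher (median -0.43), and 10 were lower without replicate 1 of day 2. Their summed level was 103000 to 113000 CPM at day 2 and 77000 to 88900 CPM at day 4. Col1a1, the main chain of type I collagen, fell from 32100, 28000 and 35200 CPM to 22900, 18700 and 18000 CPM (-0.68 ± 0.16, adjusted p = 0.00225) after 89900 to 102000 CPM at day 0 plus VC. Fbln1, fibulin 1, fell from 970, 900 and 836 CPM to 466, 479 and 452 CPM (-0.95 ± 0.12), and had been 0.05 higher on the log2 scale at day 2 than at day 0 (adjusted p = 0.797). The collagen crosslinking enzymes Loxl1 (-0.77 ± 0.09) and Lox (-0.73 ± 0.12) were lower in all 3 day 4 libraries than in any day 2 library. Values for Thy1, Cd34 and Col3a1 were -0.15, -0.04 and -0.06 (adjusted p = 0.403, 0.831 and 0.859), and Fap, a protease of activated fibroblasts, rose by 0.67 from a mean of 17.5 to 27.7 CPM. Over all 36 tested collagen chains 11 were lower (30.6%) and 4 higher (11.1%), beside 10.1% and 9.95% of all tested genes. The higher chains included Col15a1, from 126, 124 and 127 CPM to 281, 224 and 241 CPM (0.99 ± 0.14).

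Of 20 TGFb target genes 11 were lower and none higher (median -0.46), beside 10.1% and 9.95% of all tested genes. Without replicate 1 of day 2, 6 were lower. Ltbp2, a matrix protein related to the latent TGFb binding proteins, fell from 909, 915 and 1010 CPM to 521, 420 and 414 CPM (-1.06 ± 0.14, adjusted p = 1.07e-06). Tgfbi fell by 0.70 ± 0.09 and the feedback inhibitor Pmepa1 by 0.55 ± 0.09. Among 24 genes of the mesenchymal state 10 were lower and 1 higher (median -0.31), with 4 lower without that library, and 6 and 5 without replicates 2 and 3 of day 4. The transcription factor gene Snai1 went from 175, 96.8 and 88.1 CPM to 64.9, 79.6 and 67.8 CPM (-0.76 ± 0.21), Cdh2, N-cadherin, fell by 0.57 and Sparc by 0.45, and the endocytic adaptor gene Dab2 rose from 157, 149 and 142 CPM to 259, 234 and 254 CPM (0.74 ± 0.14). The regulators Zeb1, Twist1 and Snai2 had log2 fold changes of -0.07, -0.06 and 0.02 (adjusted p = 0.731, 0.758 and 0.949). Of the 12 hydroxylases and their partners that act on procollagen, 6 were lower and none higher. P4ha3 fell from 44.5, 42.8 and 40.3 CPM to 15.1, 17.2 and 17.7 CPM (-1.35 ± 0.13, adjusted p = 4.99e-09), Plod3 by 0.78 ± 0.10 and Crtap by 0.56 ± 0.10. Of 26 tested genes of the secretory phenotype of senescent cells 10 were lower and 3 higher (median -0.42), and 7 and 2 without that library. The collagenase gene Mmp13 fell from 15.3, 16.3 and 16 CPM to 6.51, 5.43 and 7.05 CPM (-1.33 ± 0.21), and Cxcl12 fell by 0.64, whereas Ptgs2, cyclooxygenase 2, rose from 186, 168 and 139 CPM to 289, 335 and 334 CPM (0.96 ± 0.17).

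Most cholesterol synthesis genes were lower at day 4 than at day 2. Their transcription is driven by Srebf2, which cells activate when sterols are low. Of 24 tested genes 16 were lower at day 4 and none higher (median -0.48, beside -0.01 for all tested genes), whereas from day 0 to day 2 plus VC 19 had been higher and 1 lower (median 0.72). Both intervals share the day 2 libraries, so that a high day 2 value alone would give opposite signs. Without replicate 1 of day 2, which had the highest summed level, 11 were lower. Cyp51, which demethylates lanosterol, fell from 139, 108 and 119 CPM to 68.2, 75.2 and 74.1 CPM (-0.75 ± 0.09, adjusted p = 3.52e-07) and had been 78.5 ± 5.94 CPM (mean ± SD, n = 3) at day 0 plus VC. Msmo1, a sterol oxidase of the same branch, fell from 90.1, 56.8 and 60.8 CPM to 32, 40.7 and 40.1 CPM (-0.88 ± 0.12). Sqle, the squalene epoxidase, fell from 129, 104 and 112 CPM to 81.1, 85 and 79.1 CPM (-0.49 ± 0.09), and Srebf2 itself from 351, 328 and 348 CPM to 264, 259 and 255 CPM (-0.40 ± 0.09).

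The stretches of 250 bases before the transcription starts of 4 of the falling genes are shown because 16 of the 24 genes were lower. They are RefSeq sequences of GRCm38.p6, printed 5′ to 3′ on the strand of the gene, with the letters CCAAT or its reverse complement ATTGG, the core of the site of the factor NF-Y, in capitals. Cyp51 lies at chr5:4104698-4104947 on the minus strand, Msmo1 at chr8:64733579-64733828 on the minus strand, Mvd at chr8:122443423-122443672 on the minus strand and Nsdhl at chrX:72918271-72918520 on the plus strand.
Cyp51: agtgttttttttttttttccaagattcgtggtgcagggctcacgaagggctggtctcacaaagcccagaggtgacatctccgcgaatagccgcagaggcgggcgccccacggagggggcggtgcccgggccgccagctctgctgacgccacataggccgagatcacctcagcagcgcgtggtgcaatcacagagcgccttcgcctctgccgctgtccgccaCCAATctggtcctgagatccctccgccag
Msmo1: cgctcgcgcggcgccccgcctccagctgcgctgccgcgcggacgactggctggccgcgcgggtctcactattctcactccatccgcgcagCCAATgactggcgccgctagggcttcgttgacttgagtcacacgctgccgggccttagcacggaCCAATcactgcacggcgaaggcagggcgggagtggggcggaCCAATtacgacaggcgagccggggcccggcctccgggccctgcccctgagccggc
Mvd: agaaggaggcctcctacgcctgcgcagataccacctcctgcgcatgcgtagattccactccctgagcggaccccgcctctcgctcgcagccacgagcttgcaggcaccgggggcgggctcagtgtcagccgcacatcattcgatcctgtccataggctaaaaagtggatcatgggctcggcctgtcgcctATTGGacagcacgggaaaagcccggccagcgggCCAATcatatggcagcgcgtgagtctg
Nsdhl: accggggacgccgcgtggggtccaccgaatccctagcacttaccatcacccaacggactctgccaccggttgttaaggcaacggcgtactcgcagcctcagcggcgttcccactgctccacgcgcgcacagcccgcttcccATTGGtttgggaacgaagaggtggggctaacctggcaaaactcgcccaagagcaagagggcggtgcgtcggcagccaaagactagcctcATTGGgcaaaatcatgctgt

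RefSeq promoter entries matched 16 of the 24 cholesterol genes and 11280 of the 15832 tested genes. CCAAT stood on either strand in the 250 bases upstream of 16 of these 16 genes, of which 11 were called lower, and in 40.3% of all matched promoters. Among all genes called lower at day 4 it stood in 37.9% and among those called higher in 38.3%. The word TCACNCCAC, a form of the sterol response element, stood in 1 of the 16 and in 1.28% of all matched promoters, and GGGCGG, the core of the GC box bound by Sp1, in 15 of the 16 and in 62.4%. In all, 14 words were searched on both strands. A match is a description of letters and not a site in use.

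**Figure D3:**
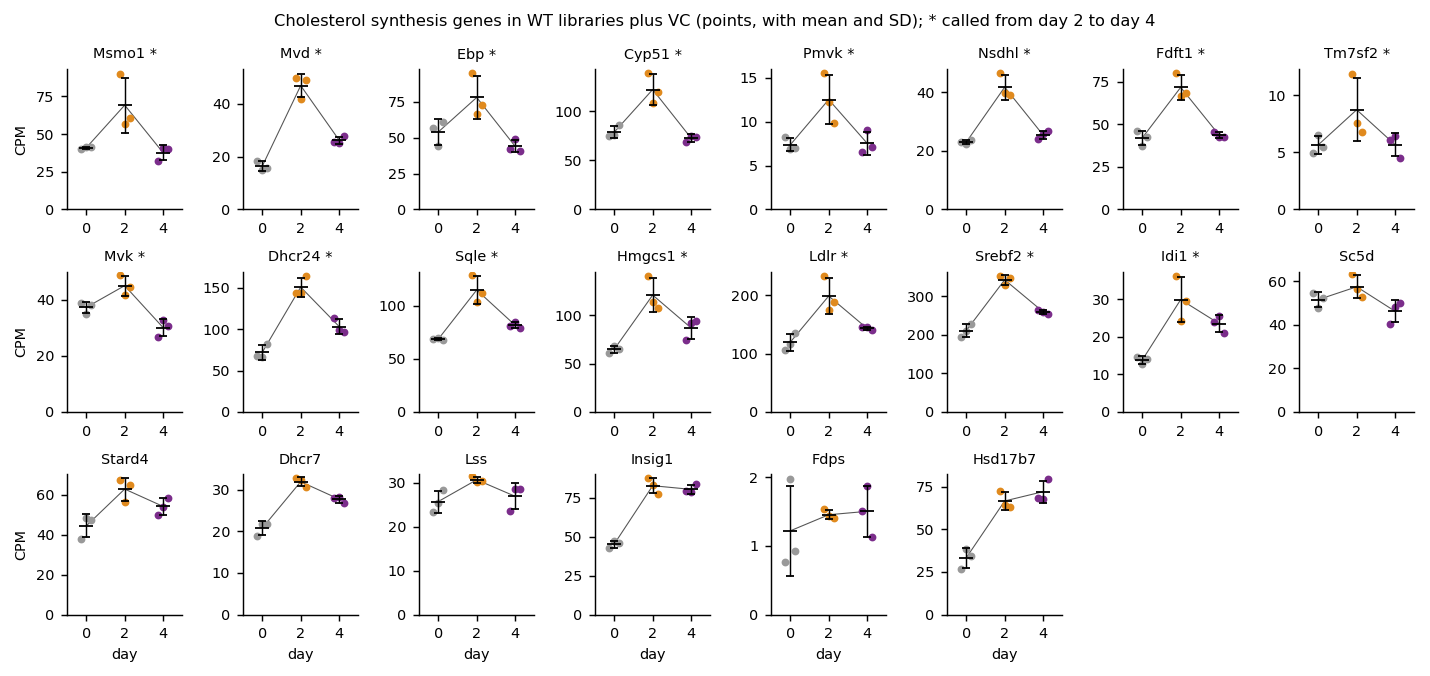
CPM of 22 cholesterol synthesis genes in the WT libraries plus VC at days 0, 2 and 4, 1 point per library, with mean and SD as bars and an asterisk on the 15 of them called lower from day 2 to day 4. Most panels peak at day 2, among them that of Cyp51.

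Few pluripotency genes had enough counts to be tested. Of 30 in the list 12 were tested, of which 3 were higher and 3 lower, a larger share than the 20.1% called among all tested genes, with 1 to 3 lower as each library was left out in turn. Zfp42, Dppa3, Lin28a and Sall4 had no count in any of the 6 libraries. L1td1, an RNA-binding protein of pluripotent cells, went from 4.84, 4.56 and 7.12 CPM to 13.5, 15.5 and 13.2 CPM (1.36 ± 0.21, adjusted p = 2.97e-05) and was at 0 at day 0 plus VC. Trim71 was at 0, 0.11 and 0.122 CPM and then at 0.814, 0.878 and 0.645 CPM (adjusted p = 0.00449). Klf2 fell from 11.3, 11.9 and 11.2 CPM to 5.46, 6.03 and 6.51 CPM (-0.93 ± 0.21) and Klf5 by 0.80. Of 32 epithelial genes 16 were tested, with 2 higher and 1 lower, and 1 or 2 higher and at most 1 lower as each library was left out in turn. The desmosomal gene Pkp1 went from 5.15, 4.56 and 3.47 CPM to 18.5, 23.6 and 19.6 CPM (2.23 ± 0.23, adjusted p = 6.72e-09), and Esrp2, an epithelial splicing factor, from 1.84, 1.04 and 1.28 CPM to 0.465, 0.713 and 0.645 CPM (adjusted p = 0.026). Cdh1, E-cadherin, stayed between 0 and 0.232 CPM in the 6 libraries. None of 14 tested keratins passed in edgeR's test, beside 1 higher at an unadjusted p under 0.05 and 1 higher by DESeq2, whereas 7 had been higher from day 0 to day 2. Krt14 was at 9.32, 7.31 and 10.2 CPM at day 2 and at 6.86, 6.25 and 6.67 CPM at day 4 (-0.44 ± 0.24, adjusted p = 0.209). Of 12 tested genes of the cornified envelope 1 was higher (none without replicate 1 or 3 of day 2) and 3 lower, the latter including Dmkn, dermokine, from 4.11, 3.57 and 2.74 CPM to 0.755, 0.658 and 0.269 CPM (-2.62 ± 0.47).

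Of 57 tested markers of other lineages 9 were called, beside 20.1% of all tested genes. The integrin gene Itga6 was the 1 called of 9 tested keratinocyte markers, from 35.1, 34.6 and 38.6 CPM to 56.5, 61.9 and 65.7 CPM (0.77 ± 0.13). The summed level of the keratinocyte list was 241 to 323 CPM at day 2 and 373 to 436 CPM at day 4. Most of that sum came from Dst, a cytoskeletal linker gene that other cells express too, with 11114 and 17595 counts over the day 2 and day 4 libraries. The median of the list was -0.01 and 4 of the 9 had a log2 fold change above 0. The part of these markers in the other results was not tested. Of 10 macrophage and leukocyte markers Lyz2 alone was called, lower by 0.60 (adjusted p = 0.0457) and not called as any of the 6 libraries was left out, and the summed level of the list was 72.1 to 82.3 CPM at day 2 and 55.7 to 57.8 CPM at day 4. None of 10 endothelial and none of 8 Schwann and melanocyte markers passed in edgeR's test or in DESeq2, beside 3 and 2 at an unadjusted p under 0.05, although 1 endothelial marker was lower without replicate 1 of day 4 and 1 Schwann or melanocyte marker higher without replicate 1 of day 2. The summed level of the endothelial list was 97 to 104 CPM at day 2 and 99.1 to 117 CPM at day 4. Most of that sum came from Tek, with 4976 and 5741 counts over the day 2 and day 4 libraries. The median of the endothelial list was -0.24 and 4 of the 10 had a log2 fold change above 0. Of 3 tested muscle markers Tnnt3 was higher, from at most 0.365 CPM to 1.18 to 2.15 CPM, and it was the 1 marker of the 3 with a log2 fold change above 0 (median -0.07). Acta1, with 269 counts over the day 2 and 153 over the day 4 libraries, was called lower in 5 of 12 alternatives but not in the main fit. Of 4 tested fat cell markers Cebpa, also a regulator of other cells, was lower by 0.34, but not without replicate 1 or 3 of day 2 or replicate 2 or 3 of day 4. Sox9, Alpl and Comp were lower among 7 chondrocyte and osteoblast markers, with 1 lower without replicate 2 of day 4. Among 4 neural markers Nes rose from 6.81, 6.93 and 10.2 CPM to 18.3, 16.6 and 13.1 CPM (1.00 ± 0.20) and Tubb3 fell. Neither of 2 trophoblast markers passed in edgeR's test or in DESeq2, and neither had an unadjusted p under 0.05.

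DNA repair genes rose more often than they fell. Of 66 tested, 14 were higher (21.2% of the list, beside 9.95% of all genes) and 1 lower, with a median of 0.24, with 9 higher without replicate 1 or without replicate 3 of day 2 and 7 without replicate 2 of day 4. Xrcc3, which acts in homologous recombination, rose from 2.39, 4.29 and 3.04 CPM to 9.65, 13.1 and 8.23 CPM (1.66 ± 0.28, adjusted p = 4.26e-05). Ddb2, the sensor of ultraviolet damage in nucleotide excision repair, rose from 1.72, 1.65 and 1.16 CPM to 5.99, 5.32 and 4.52 CPM (1.80 ± 0.33). Usp1, the deubiquitinase of the Fanconi pathway, rose from 150, 140 and 154 CPM to 210, 204 and 219 CPM (0.51 ± 0.09). Ercc6, Ercc2 and Ercc8 rose by 0.92, 0.63 and 0.84, Brca2 by 0.71, and Apex1 of base excision repair fell by 0.69. Ercc1 had 17.4, 21.7 and 20.1 CPM at day 2 and 16.9, 17.8 and 18.5 CPM at day 4 (-0.15 ± 0.16, adjusted p = 0.546). Of 18 genes of DNA and histone demethylation and DNA methylation 6 were higher and none lower (median 0.32), with 3 higher without replicate 1 or 2 of day 2 or without replicate 1 or 3 of day 4. Tet2 rose from 4.29, 8.91 and 8.57 CPM to 22.4, 19.1 and 19.2 CPM (1.48 ± 0.35, adjusted p = 0.00246), the histone demethylases Kdm3a by 0.87 ± 0.17 and Kdm6a by 0.67 ± 0.12, and Dnmt3a by 0.55. Of 28 ribosome biogenesis genes 10 were higher and none lower (median 0.19), with 6 and 5 higher without replicates 1 and 2 of day 2. The box C/D snoRNP protein Nop56 rose from 36.7, 38.4 and 42.6 CPM to 62.8, 71.8 and 61.6 CPM (0.74 ± 0.13), Gnl3, nucleostemin, by 0.81 ± 0.14 and Dkc1, dyskerin, by 0.63 ± 0.13.

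Of 30 tested genes of mitosis none passed in edgeR's test or in DESeq2, beside 3 lower at an unadjusted p under 0.05 (median -0.09), after 24 of them had been lower from day 0 to day 2 plus VC. Mki67 was at 13, 13.2 and 17 CPM at day 2 and at 19.5, 14.5 and 21.4 CPM at day 4. Of 35 DNA replication genes 2 were higher and 3 lower, beside 9.95% and 10.1% of all tested genes. The ranges were 1 to 4 and 1 to 5 as each library was left out. Among the called genes were the polymerase subunit gene Pola2 (0.70 ± 0.14) and the ribonucleotide reductase gene Rrm1 (-0.41 ± 0.09). Of 23 CDK inhibitors and p53 targets 3 were higher and 2 lower, beside the same shares of all tested genes. Mdm2 (0.41 ± 0.11) was among the higher, and Phlda3 (-0.58 ± 0.16) and Cdkn2c (-0.52 ± 0.15) were the lower. None passed in either direction without replicate 1 of day 2. Without replicate 2 or 3 of day 4 the number higher was 1, and without the latter the number lower was 1. Cdkn1a and Cdkn2a had log2 fold changes of -0.22 and -0.35 (adjusted p = 0.11 and 0.085).

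Some genes that respond to low oxygen rose, in cells that were at 3% oxygen throughout, while most of their list did not. Of 28 genes of glycolysis and hypoxia 6 were higher and 2 lower, beside 9.95% and 10.1% of all tested genes, with ranges of 4 to 6 and 1 to 5 as each library was left out. The median was -0.09, 9 of the 28 had a log2 fold change above 0, and at an unadjusted p under 0.05 there were 6 higher and 7 lower. Egln3, a prolyl hydroxylase of the hypoxia-inducible factors, rose from 3.74, 5.44 and 4.93 CPM to 22.7, 20.6 and 17.2 CPM (2.09 ± 0.20, adjusted p = 1.78e-09), after it had fallen by 1.67 between day 0 and day 2. Vegfa, the vascular growth factor, rose from 37, 49.7 and 38.6 CPM to 92.9, 138 and 102 CPM (1.41 ± 0.14, adjusted p = 6.05e-09), the hexokinase gene Hk2 by 0.92 ± 0.14 and the glycolytic regulator Pfkfb3 by 1.09 ± 0.21. Ndrg1, another gene of this list, fell from 93.5, 93.4 and 91.2 CPM to 55.9, 60 and 54.9 CPM (-0.70 ± 0.12), and the glucose transporter gene Slc2a1 had a log2 fold change of -0.03 (adjusted p = 0.903). Of 22 genes of serine synthesis and the ATF4 response 3 were higher and 3 lower, beside 9.95% and 10.1% of all tested genes. The lower genes included the serine synthesis genes Phgdh (-0.43 ± 0.13) and Psat1 (-0.48). Without replicate 1 of day 2, 1 was higher and none lower. Without replicate 3 of day 2, 1 was lower, and none were lower without replicate 3 of day 4. Of 12 tested mitochondrially encoded genes mt-Nd6 was higher (0.64 ± 0.20, adjusted p = 0.0227), which lies opposite mt-Nd5 and was not called without replicate 1 or 2 of day 2. The median of the 12 was 0.47 (0.27 to 0.73 as each library was left out), and 11 of them had a log2 fold change above 0.

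Interferon-stimulated genes varied widely among the day 2 replicates. Of 27 tested 3 were lower and none higher (median -0.69), none were lower without replicate 3 of day 2 or replicate 2 of day 4, 1 without replicate 1 of day 2 and 7 without replicate 2 of day 2, and their summed level ran from 271 to 633 CPM over the 3 day 2 libraries and from 237 to 303 CPM at day 4. Ifit1 was at 18.3, 4.95 and 49.3 CPM at day 2 and at 9.36, 3.57 and 10.7 CPM at day 4, so that the groups overlapped (adjusted p = 0.0375). Genes of MHC class I and antigen processing fell more evenly, with 11 of 19 lower and 1 higher (none higher in 5 of the 6 fits with a library left out), 6 lower without replicate 1 of day 2 and 7 without replicate 2 of day 4. Tapbp, tapasin, which loads peptides, fell from 238, 194 and 224 CPM to 124, 120 and 118 CPM (-0.86 ± 0.11, adjusted p = 3.64e-07), and H2-K1 by 0.56 ± 0.15. H2 class I genes are near copies of each other, so that reads may be split among them.

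**Figure D4:**
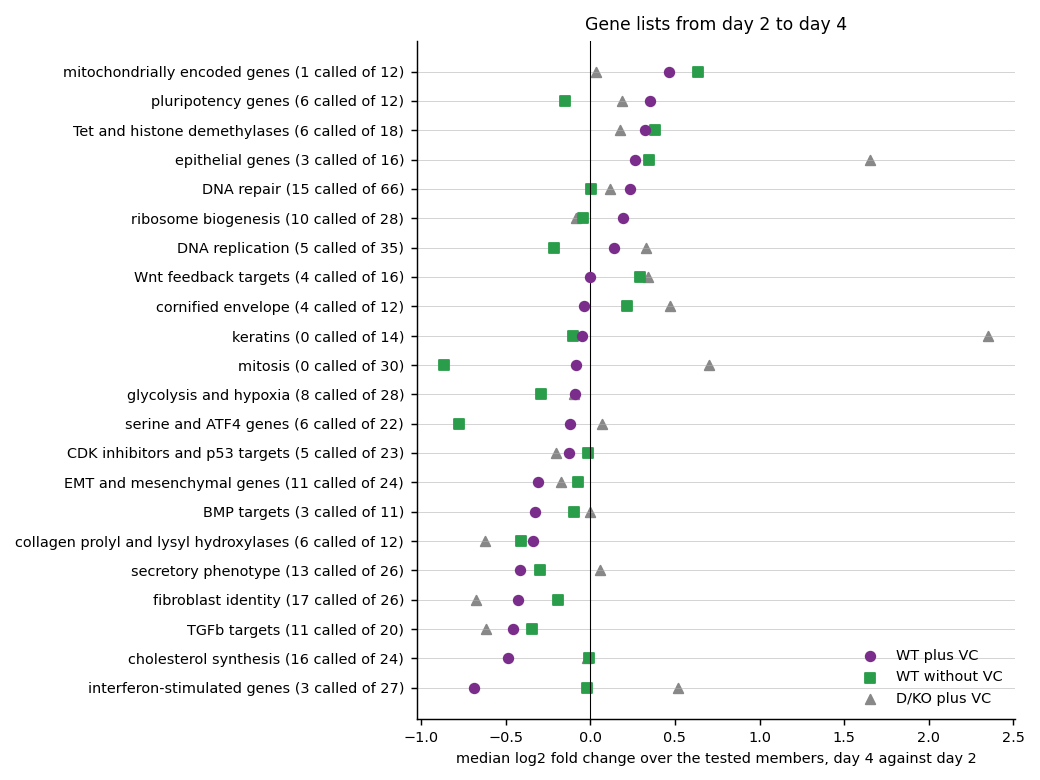
Median log2 fold change from day 2 to day 4 over the tested members of each gene list, for WT cells plus VC (circles), WT cells without VC (squares) and D/KO cells plus VC (triangles), with the number called in either direction in WT cells plus VC of the number tested. The reprogramming factors and the marker lists of other lineages are not drawn. The cholesterol list sits at -0.48 in WT plus VC and near 0 in the other 2, and the mitosis list at -0.09 beside -0.86 without VC and 0.70 in D/KO cells.

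The same interval without VC served to ask which changes of these cells went with VC. Without VC, 3406 genes (21.5%) differed between day 4 and day 2, 1464 higher (9.25%) and 1942 lower (12.3%). The genes higher in both settings numbered 343, which is 21.8% of those higher with VC and 23.4% of those higher without. The genes lower in both numbered 567, or 35.4% and 29.2%, and 24 and 60 genes were called higher or lower with VC and the opposite without. Across the 15832 genes the 2 sets of log2 fold changes had a Pearson r of 0.32 and a Spearman rho of 0.38, given as a description since genes are not replicates. The test of the difference itself called 971 genes (6.13%), 467 (2.95%) with a higher and 504 (3.18%) with a lower change with VC, and 296 of the genes that rose and 299 of those that fell plus VC were among them. Without replicate 2 of day 2 without VC, a library with 12.5 CPM of Pou5f1 beside 41.5 and 48.8 CPM in its group, 446 genes were higher and 657 lower without VC, and the called differences fell to 270 higher and 329 lower. Without replicate 2 of day 4 plus VC the called differences were 204 and 272, and without replicate 1 of day 4 without VC 232 and 291. Plus VC, they were 262 and 302 without replicate 3 of day 2 and 298 and 327 without replicate 3 of day 4, and without replicate 3 of day 4 without VC they were 310 and 353.

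Comp was the gene with the largest lower change among those chosen by the naming rule, since it rose without VC, from 56.7, 61.2 and 70.9 CPM to 94.5, 88.7 and 102 CPM (0.60 ± 0.17), and fell with VC (difference -3.23 ± 0.26, adjusted p = 1.04e-10). Fmod had a log2 fold change of -0.04 without VC (adjusted p = 0.897) and a difference of -2.13. Sfrp1 differed by -2.12 ± 0.18, and its level without VC moved by 0.32 (adjusted p = 0.0725). Lgi2 was at 8.53 to 11.3 CPM at day 2 and 8.89 to 9.31 CPM at day 4 without VC, and with VC fell from 3.86, 4.34 and 3.28 CPM to 0.465, 0.329 and 0.645 CPM (difference -2.90 ± 0.34). Sostdc1, an antagonist of BMP and Wnt ligands, rose from 1.76 to 2.26 CPM up to 9.62 to 12.3 CPM without VC and was at 0.116 to 1.08 CPM in the 6 libraries with VC (difference -3.01 ± 0.60, adjusted p = 0.00198). The collagen VI chain gene Col6a5 rose by 1.11 without VC and fell by 1.30 with VC. Among the BMP antagonists Chrdl1, Fst and Grem1 had lower changes with VC (differences -1.74, -1.45 and -1.30), and among the Wnt antagonists Sfrp1 and Sfrp2.

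Meg3 differed in the other direction by 3.88 ± 0.59 (adjusted p = 6.23e-05). Without VC it was high at both times, 64.1 to 102 CPM at day 2 and 51.6 to 83 CPM at day 4, so that the groups with and without VC lay apart at day 2 and overlapped at day 4. Firre (difference 2.87 ± 0.63) was likewise at 11.1 to 21.3 CPM without VC at day 2. Rgs11 (difference 3.48 ± 0.66), a regulator of G protein signaling, was at 4.11 to 5.89 CPM without VC at day 2 and, plus VC, at most 0.385 CPM at day 2 and 1.39 to 3.9 CPM at day 4. The exons of Rgs11 overlap Fam234a and Arhgdig on the other strand. Neat1 and Xist differed by 2.36 and 2.10, and Neat1 without VC was at 150 to 268 CPM at day 2 and at 303 to 403 CPM at day 4 (0.77 ± 0.42, adjusted p = 0.19). Cth, which makes cysteine in the transsulfuration pathway, fell without VC from 9.97, 12.4 and 10.4 CPM to 2, 2.07 and 3.26 CPM, while with VC it was already at 0.491 to 0.88 CPM at day 2 and at 0.872 to 1.48 CPM at day 4 (difference 2.98 ± 0.35). Vegfa fell by 0.42 without VC and rose with it (difference 1.83 ± 0.20, adjusted p = 1.19e-07), and Egln3 differed by 2.46 ± 0.27. Erdr1y rose from 3.95 to 4.41 CPM to between 9.12 and 27.3 CPM with VC and had a log2 fold change of -0.70 without. It is annotated on the Y chromosome with a near-identical copy on the X, so in these female cells its reads are of uncertain origin. Replicate 2 of day 2 without VC was the lowest of its group for Meg3, Firre, Neat1 and Xist, and without it Meg3 still differed by 4.06 and Firre by 3.09.

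List counts for the interval without VC, for the differences and for D/KO cells were not recomputed with libraries left out. They stand beside 2.95% of all tested genes with a called higher and 3.18% with a called lower change with VC, and beside 9.25% higher and 12.3% lower without VC. By list, 9 of the 24 cholesterol genes had a called difference, all lower with VC, among them Srebf2, which rose by 0.43 without VC (adjusted p = 0.000876) and fell by 0.40 with it. Among 30 mitosis genes 6 had a called difference, all higher with VC, and 17 were lower without VC and none with it. Of the serine and ATF4 genes 9 of 22 had a called difference, all higher with VC. Phgdh fell by 1.41 ± 0.12 without VC and by 0.43 with it. For the splicing factors, 12 were higher and 4 lower without VC, and 19 of 56 had a called higher change with VC against 1 lower. Of the fibroblast identity genes 6 had a called lower change with VC, among them Fbln1, Pdgfra and Pdgfrb, and the respiratory chain genes, of which 66 were lower without VC, had 2 called differences.

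**Figure D5:**
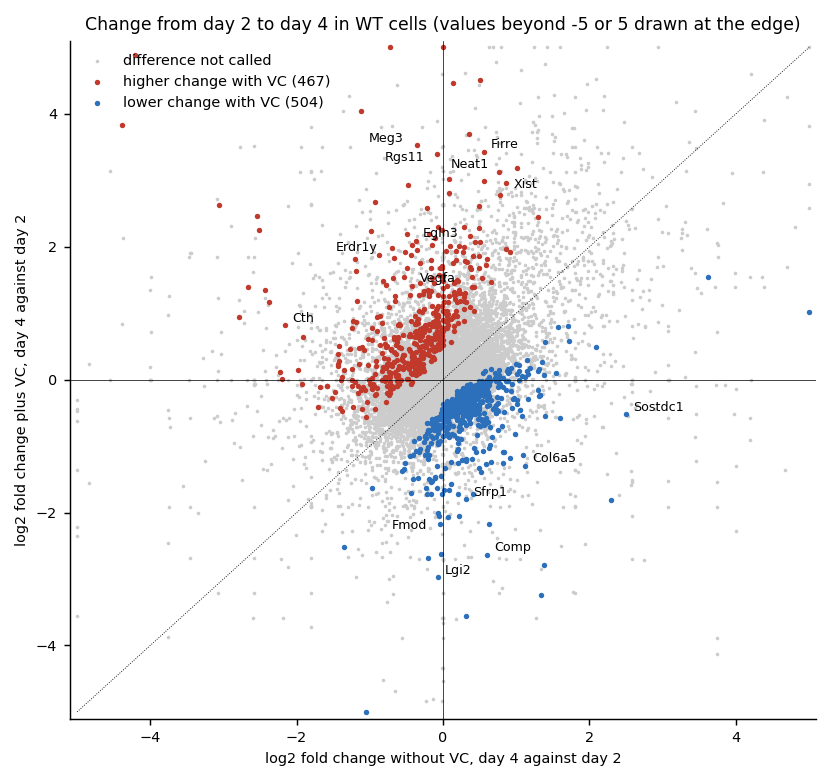
Each point is a tested gene, with its log2 fold change from day 2 to day 4 without VC on the x axis and plus VC on the y axis, where values beyond 5 are drawn at the edge and the dotted line marks equal change. Red and blue points are the 467 genes with a called higher and the 504 with a called lower change plus VC, and Meg3 and Comp lie far from the line on either side.

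In D/KO cells plus VC, 2469 genes (15.6%) differed between day 4 and day 2, 1228 higher (7.76%) and 1241 lower (7.84%). Of the genes higher in WT cells 226 were higher there too (14.3% of the WT and 18.4% of the D/KO genes), and of the lower genes 480 (30% and 38.7%). Across genes the log2 fold changes of both lines had a Pearson r of 0.19 and a Spearman rho of 0.24. The difference between the lines was called for 1398 genes (8.83%), 721 (4.55%) with a higher and 677 (4.28%) with a lower change in WT cells, and 479 and 449 without replicate 2 of the D/KO day 4 group.

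Several matrix genes fell in both lines. Fmod fell by 2.17 in WT and 2.20 in D/KO cells (difference 0.03 ± 0.23), Coch by 2.52 and 1.87, Tnn by 1.82 and 2.17 and Igfbp2 by 1.78 and 2.39. Of the fibroblast identity genes 20 of 26 were lower in D/KO cells. The factors had log2 fold changes of 0.27, 0.12, 0.17 and 0.06 for Pou5f1, Sox2, Klf4 and Myc in D/KO cells (adjusted p between 0.554 and 0.808). The difference between the lines was called for Myc and not for the other 3 (0.61 ± 0.15, adjusted p = 0.00784). D/KO cells had reached 86.2 to 111 CPM of Pou5f1 by day 2 plus VC, beside 88.3 to 108 CPM in WT cells at day 4.

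Krt8, the keratin of simple epithelia, was at 0.22 to 0.547 CPM at day 2 and 0.549 to 1.05 CPM at day 4 in WT cells, and rose from 3.13, 4.26 and 2.52 CPM to 144, 153 and 119 CPM in D/KO cells (difference -4.53 ± 0.78, adjusted p = 0.000245). List counts stand beside 7.76% of all tested genes higher and 7.84% lower in D/KO cells, and 4.55% with a called higher and 4.28% with a called lower change in WT cells. Of the keratins 9 of 14 and of the epithelial genes 10 of 16 were higher in D/KO cells. Of the mitosis genes 20 of 30 were higher in D/KO cells and 9 had a called lower change in WT cells. Of the splicing factors 23 of 56 and of the 13 noncoding RNAs 6 had called differences, all higher in WT cells. Neat1 went from 8 to 45.3 CPM at day 2 to 32.6 to 39.4 CPM at day 4 in D/KO cells (0.27 ± 0.44, adjusted p = 0.785). Of the cholesterol genes 2 were lower in D/KO cells, and 10 of 24 had a called lower change in WT cells. Tubb3 differed by -2.10 ± 0.32 and Lgi2 by -3.33 ± 0.51, the latter at 0.224 to 0.446 CPM in all 6 D/KO libraries.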

How the data were processed

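Polyadenylated RNA of 36 libraries, 12 groups of 3, was sequenced as paired reads of 150 bases on an Illumina NovaSeq. Per the labels and the study's methods the authors trimmed reads with TrimGalore, aligned them to GRCm39 with Hisat2 and counted them per gene with featureCounts. The deposited values are raw counts per Ensembl gene, not normalized. Tool versions and the strand setting of the counting are not given in the sources used here. The study's methods name DESeq2 for its own comparisons. A second table with the other 24 libraries of the series, which concern TGFb and its inhibitors, was not used here. Unused columns of per-sample values numbered 0.

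Groups were taken from the titles of the samples. The labels do not say whether replicates were separate cultures, so p-values measure only the spread between these samples. Counts of replicates in the 6 libraries differed beyond sampling noise (chi-square per degree of freedom 5.69 to 18.1). Gene names came from GENCODE M39, which held 56236 of the 56980 identifiers (98.7%). Genes with low counts were removed with filterByExpr (minimum count 10, minimum total 15), which left 15832. Counts were scaled with TMM and fitted with edgeR 4.0.16 (quasi-likelihood, R 4.3.3) with 1 coefficient per group over all 36 libraries (common biological coefficient of variation 0.132). Differences between intervals were contrasts of 4 groups in the same fit. P-values were adjusted by Benjamini-Hochberg over all tested genes, with calls at an adjusted p under 0.05. Standard errors are the log2 fold change divided by the square root of F. CPM are scaled by TMM. Libraries of 16538374 to 18484951 counts limit the precision of genes near 0. No fold is given for some genes with only a few counts per library. The fitting was tested on simulated data with known changes.

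The rule for named genes took the 4 factors, the 12 largest called changes in each direction (a mean of at least 5 CPM in the higher group, no overlap between the libraries of day 2 and day 4, no Gm or Rik symbol), the 3 smallest p-values of each list, and the 5 largest called differences in each direction between settings or lines (a mean of at least 5 CPM in the highest of the 4 groups). The members of the comparison and the lists were chosen with earlier results of these data known. Gene families by symbol, and genes named outside the rule, were chosen after their values had been seen. Alternatives were DESeq2 1.42.0, its size factors, no filter, fewer groups in the fit, a fold threshold and each replicate left out, and, chosen after seeing the data, a fit of protein-coding genes only and list counts without single libraries. Some genes that the rule names are not reported here, although they stay in the fits and in the counts of lists.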

Additional observations from a re-analysis of the deposited data

Results flagged for a closer look

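Changes from day 2 to day 4 that differed with and without VC in WT cells, by the interaction contrast of edgeR's fit at an adjusted p under 0.05, were 467 higher and 504 lower with VC. The genes listed here are taken from those that the rule named as factors, largest changes or largest differences. Other genes of the report with called differences, such as Egln3, Vegfa, Chrdl1, Fst and Grem1, are not repeated. Among the listed genes, those with the higher change plus VC had log2 differences of 3.88 (Meg3), 3.48 (Rgs11), 2.98 (Cth), 2.87 (Firre), 2.69 (Erdr1y), 2.36 (Neat1), 2.17 (Miat), 2.10 (Xist) and 2.02 (Niban3, which shares exons with Pgls). Those with the lower change plus VC had differences of -3.23 (Comp), -3.01 (Sostdc1), -2.90 (Lgi2), -2.41 (Col6a5), -2.13 (Fmod), -2.12 (Sfrp1), -2.0 (Wnt16), -1.94 (Scn7a), -1.51 (Parm1) and -1.16 (Coch).

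Changes plus VC that differed between WT and D/KO cells by the same kind of test were 721 higher and 677 lower in WT cells. The genes listed are again only those that the rule named in these ways. Higher changes in WT cells had log2 differences of 4.29 (Rgs11), 4.12 (Meg3), 3.10 (Snhg11), 2.90 (Dnm3os), 2.86 (Neat1), 2.83 (Niban3), 2.56 (Firre), 2.52 (Miat), 2.05 (Erdr1y), 1.84 (Cyp2s1) and 0.61 (Myc). Of these, Snhg11 lost its call in 8 of 16 alternatives (adjusted p up to 0.228), Niban3 in 4 of 17 (up to 0.0734), and Meg3 and Dnm3os in 1 of 16 each (up to 0.0537 and 0.065). Lower changes in WT cells had differences of -4.53 (Krt8), -3.33 (Lgi2), -2.23 (Col6a5), -2.10 (Tubb3), -1.91 (Parm1), -1.52 (Sfrp1), -1.39 (Comp) and -0.65 (Coch). Klk13, Tnnt2, Elmod1 and Nos3 were at 0 to 0.491 CPM in the 6 WT libraries plus VC and are given without a fold, with adjusted p = 0.00527, 0.0168, 0.00981 and 0.00372 for the difference. Klk13, Tnnt2 and Elmod1 each lost the call in 1 of 17 alternatives (adjusted p up to 0.937, 0.104 and 0.0654). In D/KO cells at day 4 Nos3 was at 70.6, 66.2 and 40.9 CPM and Elmod1 at 10.7, 14.5 and 19.9 CPM. Genotype, sex, age and line cannot be told apart in this comparison.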

How the results depend on the processing

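For the day 4 against day 2 comparison plus VC, the counts of higher and lower genes were 1668 and 1660 with DESeq2, 1636 and 1500 with its size factors, 1531 and 1656 without the filter, 2106 and 1945 with the compared groups alone, 2045 and 1958 with the 18 WT libraries, and 1425 and 1436 over protein-coding genes alone, the last chosen after seeing the data. With a log2 change of 1 or more in size required, they were 650 and 211, so that 75.5% of calls were higher in place of 49.6%. With each replicate left out they ran from 888 to 1292 and from 843 to 1426, lowest without replicate 1 of day 2. At that fold threshold the counts were 267 and 220 without VC, 759 and 785 for day 2 against day 0, 582 and 306 in D/KO cells, 234 and 130 for the difference by VC and 358 and 340 for that between lines. With each replicate left out the counts without VC ran from 446 to 1695 higher and from 657 to 2078 lower, lowest without replicate 2 of day 2, with 908 higher without replicate 3 of day 4 and 1264, 1270 and 1215 lower without replicates 1, 2 and 3 of day 4. The differences by VC ran from 204 to 563 and from 272 to 652, with 798 lower by DESeq2 and 710 higher with the compared groups alone, and those between lines from 479 to 817 and from 449 to 732, lowest without replicate 2 of D/KO day 4. The cause of these shifts was not tested, apart from the fewer samples or genes that an alternative used.

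Of 138 values for named genes, 134 kept their direction and side of the threshold under DESeq2, and 5 leave-one-out values turned in sign, in marker genes that were not called (Des from -0.263 to 0.091, Gata3 from -0.439 to 0.307, Prl2c2 from -0.13 to 0.60). Turned values were 0.077 and 0.091 for Des, -0.11 and -0.13 for Prl2c2 and 0.307 for Gata3. Leaving out a library ended a call in 74 cases, most often for Snhg11 (difference between lines, 8) and Lyz2 (6), with 4 each for Dsc2, Ifit1, Cebpa and Niban3 (difference between lines). List medians moved by more than the spread between replicates in 45 of 192 leave-one-out values, and of 32 medians in 4 without the filter, in 6 with the 18 WT libraries, in 6 with the compared groups alone, and in none under DESeq2's size factors or over protein-coding genes alone. No paired analysis was possible because the labels carry no replicate numbers, and samples were numbered in accession order. With 16538374 to 18484951 counts a library, genes with too few counts were removed by the filter and not tested, among them all but 12 of 30 pluripotency genes, so that nothing is said of their change.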
